A study of Homo sapiens with 6 samples.

Results

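The NEDD4 family of ubiquitin ligases, 9 genes of the 31368 in the expression table, was followed in CAL27 cells with and without lactate. Its members were taken by symbol: SMURF1, SMURF2, NEDD4, NEDD4L, ITCH, WWP1, WWP2, HECW1 and HECW2, and each had its own row. The family was chosen by name around SMURF2, which had been selected on its FPKM difference in this same comparison, so every difference between the groups given for a member is a description. Where a member is said to stand past the threshold of the all-gene fit, that is a count to set beside the share of all genes and supports nothing about the member. CAL27 is an established human line from an oral squamous cell carcinoma. Poly-A RNA was sequenced from 3 libraries of cells with no treatment and 3 of cells given 10 mM lactate for 24 h (sodium salt or acid is not stated), and all 6 libraries come from the same line. The labels do not say whether the libraries of a group came from separate cultures, so errors and p-values reflect how these libraries scatter and that scatter may be purely technical. Because the RNA is from bulk cells, fewer cells of a type and less RNA per cell cannot be told apart.

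These ligases attach ubiquitin to other proteins and so set how long those proteins last or where in the cell they go. Each has WW domains, which grip short proline-rich stretches in substrates or adaptors, and a HECT domain, whose catalytic cysteine takes the ubiquitin from a ubiquitin-conjugating enzyme before passing it on. SMURF1 and SMURF2 are best known for marking SMAD proteins and TGF-beta and BMP receptors for destruction, ITCH for JUN-family and p63 proteins, and NEDD4L for the epithelial sodium channel.

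The stretch that holds the catalytic cysteine is shown because it carries the chemistry that the members share and lets the close relatives be told apart. It was read from the longest coding sequence of each gene in GENCODE 29 (GRCh38) and runs 5′ to 3′ over 15 codons, with the cysteine codon in capitals.
SMURF2: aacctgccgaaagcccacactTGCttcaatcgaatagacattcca
SMURF1: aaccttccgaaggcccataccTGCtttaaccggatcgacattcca
ITCH: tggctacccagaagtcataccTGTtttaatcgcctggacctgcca
WWP2: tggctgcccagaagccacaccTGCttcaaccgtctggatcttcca
NEDD4: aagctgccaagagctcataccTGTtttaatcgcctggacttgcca
NEDD4L: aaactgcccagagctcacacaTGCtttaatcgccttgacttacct
HECW1: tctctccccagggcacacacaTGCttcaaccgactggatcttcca
HECW2: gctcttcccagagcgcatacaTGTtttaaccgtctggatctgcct

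SMURF1 has the same base as SMURF2 at 37 of the 45 positions and encodes the same residue at 15 of 15. NEDD4L shares 33 bases and 11 residues with SMURF2, and ITCH 27 bases and 10 residues. The cysteine is codon 716 of 748 in SMURF2 and codon 871 of 903 in ITCH, with 32 codons after it in both. In SMURF1, SMURF2, NEDD4, NEDD4L, ITCH, WWP1 and WWP2 an exon junction cuts this codon after its base 2. In SMURF2 the codon starts at the end of exon 18 of 19 and its bases span chromosome 17, 64545947 to 64546264. In HECW1 and HECW2 the junction lies 10 bases before the codon, which is whole in the last exon. Over the last 900 coding bases, aligned in pairs, identity was highest for ITCH and WWP1 (76.6%), HECW1 and HECW2 (75.7%), NEDD4 and NEDD4L (75.2%) and SMURF1 and SMURF2 (73.5%). SMURF2 and HECW1 shared 56.5%. Each member has its own row, as does SMURF2P1. This pseudogene copy of SMURF2 had 2.17 FPKM in untreated and 2.88 FPKM in lactate libraries on average, and reads that could come from either cannot be told apart here.

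The libraries had denominators of 25163374 to 40220226 reads, and the reads behind each member could be recovered from the FPKM (fragments scaled to gene length and library size). Recovered reads over all genes came to 102.1% to 103.3% of the denominator in untreated and 97.1% to 98.2% in lactate libraries, which do not overlap. All 8 squamous epithelial marker genes averaged at least 1 FPKM. Their summed levels were 937 to 956 FPKM in untreated and 937 to 961 FPKM in lactate libraries. By the limma test 5 of these genes rose and 2 fell (87.5% called, against 58.6% of all genes tested). Their part in the family's values was not tested. Fibroblast markers (5 of 6 in the table, each under 1 FPKM on average) summed to 1.04 to 1.19 FPKM in untreated and 1.59 to 1.79 FPKM in lactate libraries, which do not overlap, and their part in the family's values was not tested. COL3A1 was at 0 in 4 of the 6 libraries. Leukocyte markers (4 of 5) summed to at most 0.134 FPKM in any library. Of the 3 endothelial markers in the table, CDH5 averaged 1.10 FPKM and the others were under 1.

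SMURF2 was the most abundant member in both groups, at 14.3 ± 0.641 FPKM in untreated and 23.5 ± 0.133 FPKM in lactate libraries (mean ± SD, n = 3 each), and ITCH was next. In untreated libraries WWP2 (6.11 ± 0.0669 FPKM), NEDD4 (5.98 ± 0.409) and SMURF1 (5.67 ± 0.498) followed, and the values of neighbours in this trio overlapped. WWP1 (4.24 ± 0.117) and NEDD4L (2.90 ± 0.0154) stood below them without overlap with the member above. HECW1, at 0.287 ± 0.0156 FPKM, and HECW2, at 0.0156 ± 0.00683 FPKM, were the lowest. Each FPKM depends on the gene length the authors divided by, and for some members that length was far from a single mRNA. For NEDD4L the recovered length was 34097 nt, against 17455 nt for all its GENCODE 29 exons together and 8436 nt for its longest transcript, and for ITCH it was 10639 nt against 6664 and 6401 nt. Scaled to the longest transcript, an alternative added after the data were seen, NEDD4L came to a level of 11.7 ± 0.0622 in untreated libraries and moved from rank 7 to rank 4 of the family. SMURF2 (17.5 ± 0.784) and ITCH (15.97 ± 0.454) kept the highest ranks on that scale. The place of NEDD4L, and of some other members, among their relatives therefore rests on the length used. The ratio of a gene's FPKM between libraries does not. Its difference on the log2(FPKM + 1) scale does in part, since 1 is added to the FPKM. For NEDD4L that difference was 0.10, and 0.13 with 0.1 added in place of 1. Whether a gene passed a level filter rested on the length too.

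**Figure D1:**
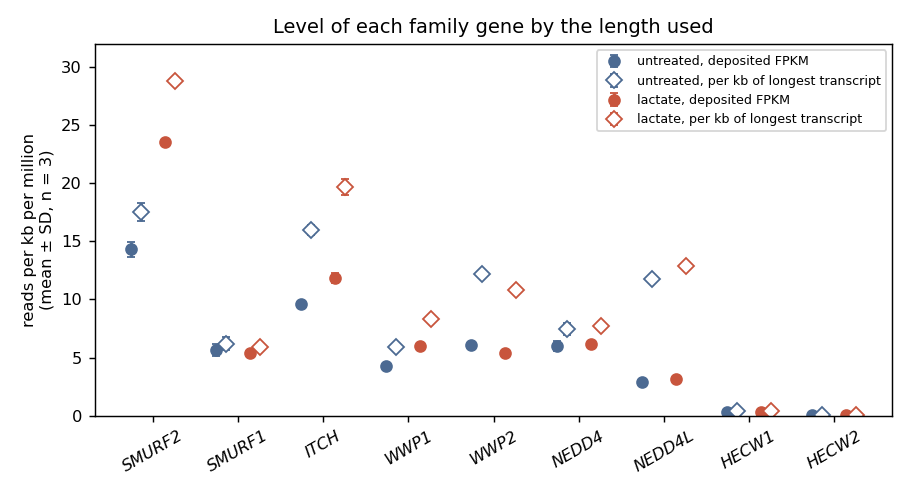
Length-scaled level of each family gene, per kilobase and scaled to library size as in FPKM (y axis; mean ± SD, n = 3 libraries), in untreated (blue) and lactate (red) libraries, with the gene length behind the deposited FPKM (filled circles) or the longest GENCODE 29 transcript (open diamonds). SMURF2 is highest either way, and NEDD4L goes from 2.90 to 11.7 in untreated libraries when its longest transcript is used.

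SMURF2 (ENSG00000108854, chromosome 17, 64542295 to 64662068, minus strand, GRCh38) had 14.5, 13.6 and 14.9 FPKM in untreated replicates 1 to 3 and 23.4, 23.6 and 23.6 FPKM in lactate replicates 1 to 3. All 3 lactate values lay above all untreated values, with little spread among them. These values rested on 2476 to 3580 reads in untreated and 5220 to 6854 reads in lactate libraries. The ratio of means was 1.64, and the difference on the log2(FPKM + 1) scale, which understates changes of low genes, was 0.68 (SE 0.034), number 25 from the top among the 11792 genes that passed the level filter of 1 FPKM in 3 libraries. SMURF2 alone made up 29.2% of the family's summed FPKM in untreated and 38.0% in lactate libraries. Both shares depend on the gene lengths behind the FPKM, those of NEDD4L and ITCH included.

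SMURF1 (ENSG00000198742, chromosome 7, 99027438 to 99144100) did not share this difference in level. It had 6.24, 5.43 and 5.34 FPKM in untreated and 5.19, 5.42 and 5.54 FPKM in lactate libraries. The groups overlapped, and untreated replicate 1 stood above the other 5 values. Spread among untreated libraries was 8.79% of the mean, where counting of its 858 to 1116 reads alone gives 3.14%. The log2 difference was -0.061 (SE 0.055), and -0.00027 without untreated replicate 1. Exons of SMURF1 overlap those of TRRAP on the opposite strand by 735 nt, and no source used here says whether strand was used in counting. The same limit holds for WWP1 (247 nt shared with RMDN1, itself at 8.20 FPKM in untreated libraries), SMURF2 (167 nt with CEP95) and NEDD4L (768 and 177 nt with antisense genes). It holds too for HECW2 (299 nt with RN7SL820P) and HECW1 (86, 153 and 191 nt with antisense or lincRNA genes). The lincRNA gene, AC005537.1, was itself at 0.220 FPKM in untreated libraries. The ratio of SMURF2 to SMURF1 FPKM was 2.54 ± 0.240 in untreated and 4.37 ± 0.122 in lactate libraries.

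**Figure D2:**
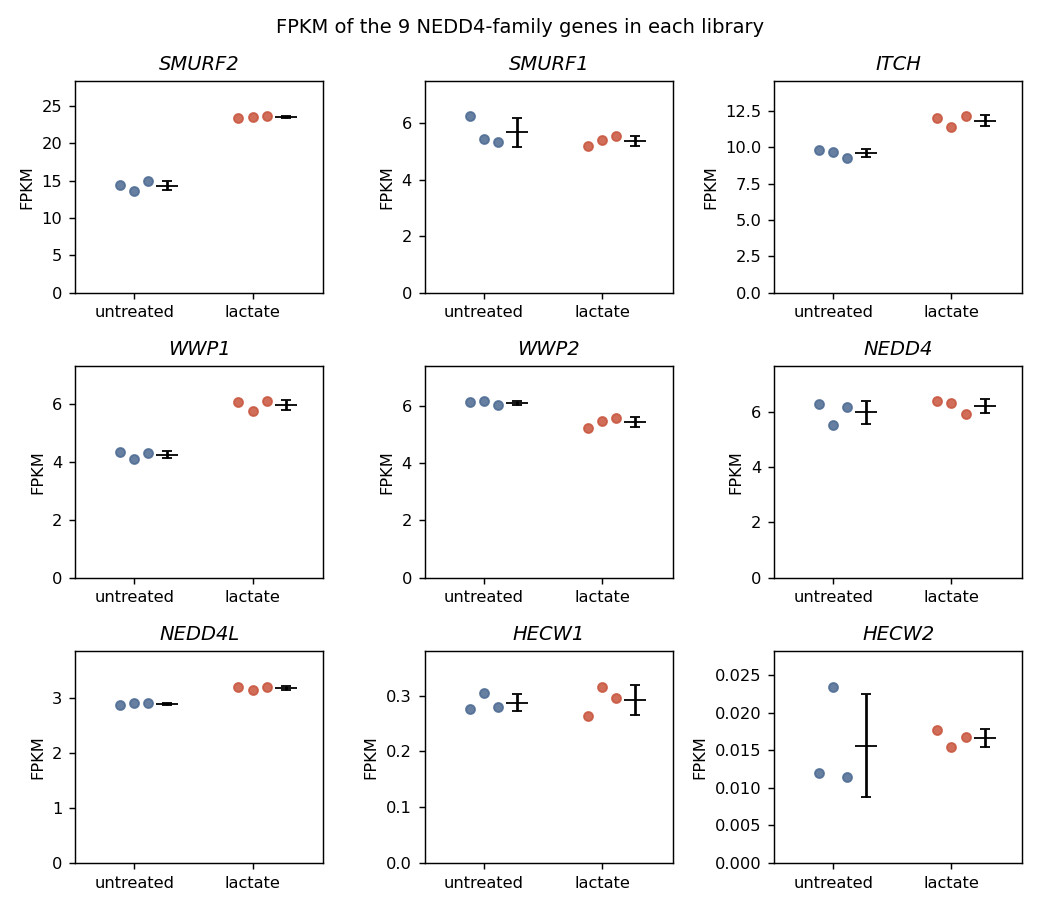
FPKM of each of the 9 family genes (y axis, from 0, own scale per gene) in the 3 untreated (blue) and 3 lactate (red) libraries, with mean ± SD beside the points. SMURF2, ITCH, WWP1 and NEDD4L show lactate values all above the untreated ones, WWP2 all below, and the other 4 overlap.

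The promoters of this pair are shown because the paralogs parted in level; each is the 250 bases before the RefSeq start (GRCh38.p14), 5′ to 3′ on the gene's strand, with GGGCGG boxes of either strand in capitals.
SMURF2, chr17:64662308-64662557, minus strand: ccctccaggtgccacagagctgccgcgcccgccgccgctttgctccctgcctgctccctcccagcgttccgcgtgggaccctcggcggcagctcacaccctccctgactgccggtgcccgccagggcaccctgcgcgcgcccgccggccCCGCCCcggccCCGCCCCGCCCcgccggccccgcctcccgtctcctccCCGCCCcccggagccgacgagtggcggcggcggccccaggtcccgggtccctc
SMURF1, chr7:99144109-99144358, minus strand: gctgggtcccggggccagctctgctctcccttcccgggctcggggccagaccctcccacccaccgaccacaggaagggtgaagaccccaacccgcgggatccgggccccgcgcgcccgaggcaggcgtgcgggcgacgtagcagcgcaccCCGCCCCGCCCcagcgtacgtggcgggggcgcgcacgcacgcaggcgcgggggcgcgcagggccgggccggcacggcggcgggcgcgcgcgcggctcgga

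Both promoters are rich in GC, at 82.0% for SMURF2 and 81.2% for SMURF1, against a median of 58.0% over 35116 promoters of the same length. On both strands, with overlapping matches counted, SMURF2 holds 4 GGGCGG boxes and SMURF1 holds 2, and 42.6% of all promoters hold at least 1. The hypoxia-factor core ACGTG, found in 18.5% of promoters, has no match in the SMURF2 stretch and 1 in the SMURF1 stretch. The SMAD box CAGAC, found in 38.0% of promoters, likewise has none in SMURF2 and 1 in SMURF1. The TEAD letters GGAATG (11.9% of promoters) are in neither. These are letter matches and say nothing of binding.

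WWP1, ITCH and WWP2 form the branch best known for p63, JUN and KLF5 as substrates. WWP1 (ENSG00000123124, chromosome 8, 86342738 to 86478420) had 4.32, 4.11 and 4.30 FPKM in untreated and 6.06, 5.77 and 6.08 FPKM in lactate libraries. The lactate values were all higher, with a log2 difference of 0.41 (SE 0.035) and a ratio of means of 1.41. ITCH (ENSG00000078747, chromosome 20, 34363235 to 34511393) had 9.84, 9.69 and 9.31 FPKM in untreated and 12.01, 11.4 and 12.1 FPKM in lactate libraries. Again no values overlapped, and the log2 difference was 0.28 (SE 0.035). WWP2 (ENSG00000198373, chromosome 16, 69762306 to 69941741) went the other way, with 6.14, 6.16 and 6.03 FPKM in untreated and 5.24, 5.47 and 5.58 FPKM in lactate libraries. Its log2 difference was -0.15 (SE 0.032), and it was the only member whose lactate values were all below the untreated ones. The ratio of WWP1 to WWP2 FPKM therefore passed from 0.695 ± 0.0239 in untreated to 1.10 ± 0.0522 in lactate libraries. Which of them is higher rests on the length used. Scaled to the longest transcript WWP2 stayed above WWP1, at 12.2 against 5.91 in untreated and 10.8 against 8.32 in lactate libraries. ITCH to WWP1 was 2.27 ± 0.0976 and 1.98 ± 0.0113.

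NEDD4, which gives the family its name, and NEDD4L differed little between groups. NEDD4 (ENSG00000069869, chromosome 15, 55826922 to 55993746) had 6.27, 5.51 and 6.15 FPKM in untreated and 6.37, 6.31 and 5.93 FPKM in lactate libraries. The groups overlapped, with a log2 difference of 0.046 (SE 0.050) that became -0.0029 without untreated replicate 2, its lowest library. NEDD4L (ENSG00000049759, chromosome 18, 58044367 to 58401540) had 2.89, 2.92 and 2.91 FPKM in untreated and 3.22, 3.15 and 3.21 FPKM in lactate libraries. Its values did not overlap, but the log2 difference was 0.10 (SE 0.032). The ratio of NEDD4 to NEDD4L FPKM was 2.06 ± 0.150 in untreated and 1.94 ± 0.0834 in lactate libraries. It rests on the lengths behind the FPKM. Scaled to the longest transcript the order was reversed, with NEDD4 at 7.47 and NEDD4L at 11.7 in untreated libraries. In lactate libraries they were then at 7.74 and 12.9.

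HECW1 and HECW2, known mainly from neural tissue, did not pass the level filter. HECW1 had 0.277, 0.305 and 0.280 FPKM in untreated and 0.264, 0.316 and 0.296 FPKM in lactate libraries, from 107 to 166 reads. HECW2 had 0.0119, 0.0235 and 0.0114 FPKM in untreated and 0.0177, 0.0154 and 0.0168 FPKM in lactate libraries, from 8 to 16 reads. The groups overlapped for both genes, and at this depth no difference was detectable for either.

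Of the 7 members that passed the filter, 4 stood past the all-gene threshold as higher in lactate (SMURF2, WWP1, ITCH and NEDD4L) and 1 as lower (WWP2). Over all genes tested the same limma fit called 27.7% higher and 30.9% lower, 58.6% in all, so the family's count is no result in itself. NEDD4L was past the threshold in 5 of its 15 alternative fits, and of the 6 with 1 library left out only in that without lactate replicate 2. WWP2 was not past it with read totals (-0.084), nor ITCH with GC content and length taken out. Groups did not overlap for 5 of these 7 members and for 65.5% of all genes tested. Scaled to the totals of recovered reads, 4207 genes were higher and 2534 lower, against 3265 and 3649 as deposited; SMURF1 then changed sign (0.00028), and no other tested member did.

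The members differ in GC content and length, and the fold change of all genes moved with both. Over 9885 protein-coding genes the Spearman rho of the log2 difference was -0.48 with GC content and 0.32 with length, as a description across genes of the same 6 libraries. SMURF2, WWP1 and ITCH, the members with the largest positive differences, have 39.3%, 38.8% and 39.1% GC in their longest transcripts. SMURF1 and WWP2, the members with negative differences, have 51.9% and 57.5% GC. NEDD4 is the exception, with the lowest GC content of the tested members (37.7%) and a difference near 0.

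**Figure D3:**
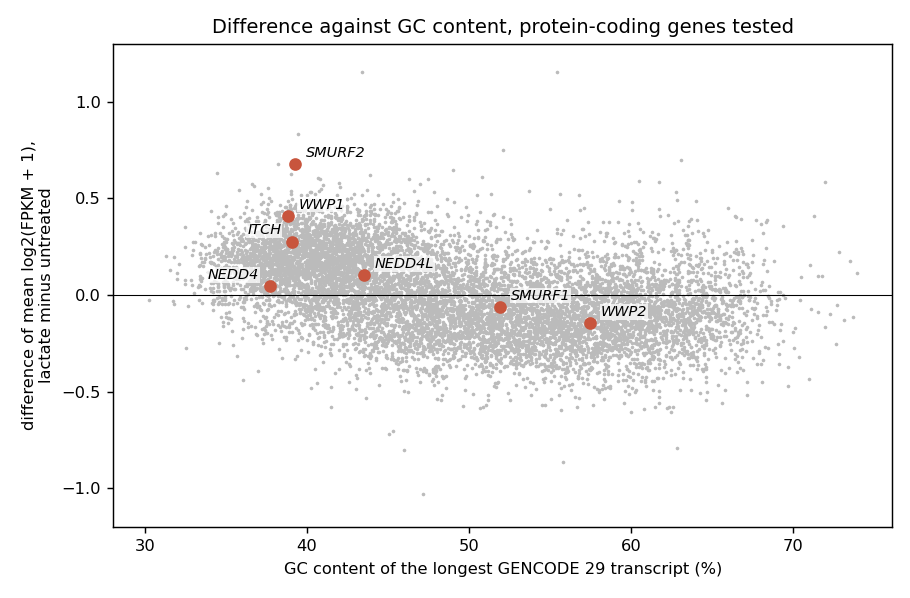
Difference of mean log2(FPKM + 1), lactate minus untreated (y axis), against GC content of the longest transcript in percent (x axis) for the protein-coding genes tested (grey) and the 7 tested family genes (red, named). SMURF2 lies at 39.3% GC and 0.68, NEDD4 at 37.7% and 0.046, and WWP2 at 57.5% and -0.15.

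When the dependence of every library on GC content and length had been taken out, the difference for SMURF2 was 0.51 (SE 0.030) and that for WWP1 0.25 (SE 0.029). ITCH came down to 0.084 (SE 0.031) and no longer stood past the threshold. NEDD4L turned to -0.050 (SE 0.031) and NEDD4 to -0.14 (SE 0.045), while WWP2 stayed lower at -0.098 (SE 0.029) and SMURF1 was at 0.0027 (SE 0.055). The length taken out was the one behind the FPKM, 34097 nt for NEDD4L and 10639 nt for ITCH, not that of the longest transcript. In that fit 4 members stood past the threshold, where 48.8% of all genes did. Of these 2 members were higher (SMURF2 and WWP1) and 2 lower (NEDD4 and WWP2), against 23.0% and 25.8% of all genes.

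**Figure D4:**
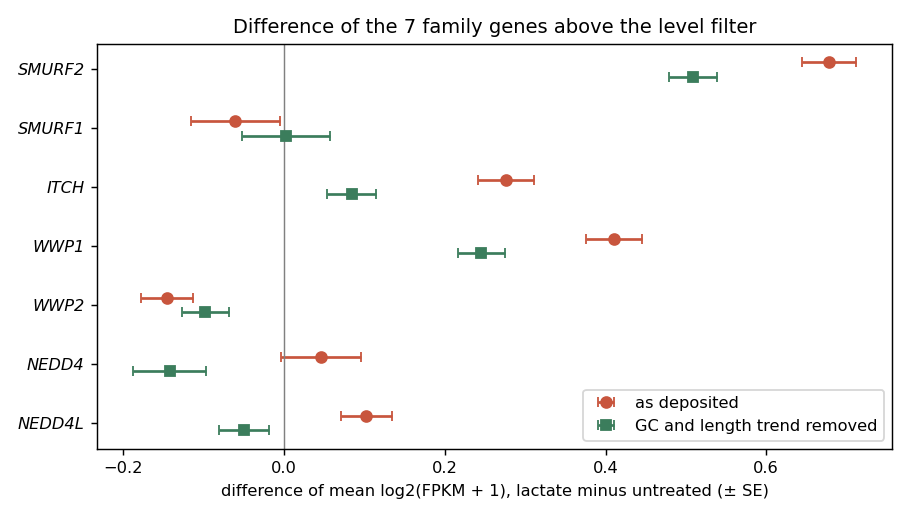
Difference of mean log2(FPKM + 1), lactate minus untreated, with its SE (x axis), for the 7 family genes above the level filter, from the deposited values (red circles) and after that dependence on GC content and length was taken out (green squares). SMURF2 goes from 0.68 to 0.51, while NEDD4 and NEDD4L pass from above 0 to below it.

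By the distance between their log2 values over the 6 libraries, centred on the untreated mean, the genes most like SMURF2 were TMPRSS15 (distance 0.094, Pearson r 0.994), NOTCH3 (0.115, r 0.992), ELOVL4 (0.120, r 0.995), TXNIP (0.123, r 0.996) and P4HA1 (0.139, r 0.999). TMPRSS15 stood at 5.44 ± 0.273 FPKM in untreated and 9.31 ± 0.411 FPKM in lactate libraries, and P4HA1, a subunit gene of collagen prolyl hydroxylase, at 12.5 ± 0.385 and 19.5 ± 0.178 FPKM. With 6 libraries in 2 groups, such r values mainly say that a gene differed between the groups in the same direction. Only the distance bears on the amount, and on the log2(FPKM + 1) scale, which understates changes of low genes. NOTCH3, for example, went from 1.21 FPKM in untreated to 2.59 FPKM in lactate libraries.

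Ligases of this family are brought to many substrates by adaptor proteins with proline-rich motifs. Of 24 adaptor and activator genes listed, 19 were tested, and 7 rose and 4 fell. That is 57.9% called, where 58.6% of all genes tested were (27.7% higher and 30.9% lower). The median log2 difference was 0.034 against -0.016 over all genes. ARRDC4, an arrestin-domain adaptor, had 10.1, 10.1 and 9.62 FPKM in untreated and 23.6, 22.9 and 23.6 FPKM in lactate libraries. It rose by 1.16 on the log2 scale (SE 0.028, limma adjusted p = 3.35e-06). Its relative TXNIP, a substrate of ITCH, rose from 122 ± 0.992 to 189 ± 2.04 FPKM; both were known to differ when the list was written. RNF11, a small partner of SMURF2 and ITCH, rose from 27.4 ± 1.08 to 33.02 ± 1.31 FPKM (limma adjusted p = 8.71e-04), and SPART (0.31) and AMOTL1 (0.18) rose as well. The membrane activators NDFIP1 (0.11) and NDFIP2 (0.16) rose with the deposited values, but with the GC and length trend removed NDFIP1 was at -0.046 and NDFIP2 at 0.019, and neither passed. SCAMP3 (-0.31), ARRDC1 (-0.21), AMOTL2 (-0.18) and WBP1L (-0.13) fell. With the trend removed SPART (0.14), SCAMP3 (-0.16), ARRDC1 (-0.12) and AMOTL2 (-0.11) passed at smaller differences. The call for WBP1L was lost when untreated replicate 1, 2 or 3 or lactate replicate 1 or 3 was left out (limma adjusted p = 0.0640 to 0.0810), nor with read totals, no level filter or the trend removed (0.110 to 0.250). SMAD7, the adaptor that takes SMURFs to the TGF-beta receptor, was under the filter, with 0.690, 0.977 and 0.921 FPKM in untreated and 0.753, 0.840 and 0.769 FPKM in lactate libraries, and these overlapped.

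Among 21 receptor, SMAD and corepressor genes whose products SMURFs act on, 14 were tested, and 7 rose and 1 fell (median 0.097). That is 57.1% called, where 58.6% of all genes tested were. There were 3 rises with a filter at 5 FPKM, and 5 rises and 2 falls once the trend was removed. The BMP receptor gene BMPR2 rose from 1.28 ± 0.0552 to 1.86 ± 0.0406 FPKM (log2 difference 0.33, limma adjusted p = 5.49e-04). SMAD5, a BMP signal carrier, rose from 4.86 ± 0.225 to 6.30 ± 0.297 FPKM (0.32). With the trend removed BMPR2 was at 0.12 (limma adjusted p = 0.0493) and SMAD5 at 0.13 (0.0214). BMPR1A rose by 0.28 but did not pass with the trend removed (0.11, limma adjusted p = 0.0696). TGIF1, a corepressor of SMAD signalling, fell from 9.37 ± 0.0529 to 8.22 ± 0.246 FPKM, a log2 difference of -0.17 that was -0.33 with the trend removed. SMAD4, the shared partner of these carriers, was below the filter at 0.466 FPKM in untreated and 0.472 FPKM in lactate libraries.

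Other known substrates moved in both directions. Of 13 tested further SMURF substrates, 5 rose and 3 fell (61.5% called, against 58.6% of all genes tested, median 0.024). With quantile normalization or read totals the falls came to 1 in each, while with the trend removed the rises came to 3. RNF20, a histone H2B ubiquitin ligase, rose from 15.9 ± 0.254 to 20.4 ± 0.633 FPKM (limma adjusted p = 8.33e-05), and TOP2A, the mitotic topoisomerase gene, from 40.4 ± 1.01 to 48.9 ± 1.27 FPKM. MAP3K2 rose by 0.23, but came to 0.040 and did not pass with the trend removed. ID1, a BMP target, fell from 19.3 ± 0.595 to 15.1 ± 0.337 FPKM (-0.34). With the trend removed TOP2A was at 0.11 and ID1 at -0.16, and both passed. Of 14 tested substrates of NEDD4, ITCH and the WWPs, 5 rose and 3 fell (57.1% called, median 0.047). The rises came to 3 with the trend removed and to 3 with a filter at 5 FPKM. Among the falls, SCNN1A, a subunit gene of the epithelial sodium channel, passed the level filter through its untreated libraries alone (1.09, 1.26 and 1.18 FPKM, against 0.891, 0.906 and 0.922 FPKM with lactate), so the filter favoured its direction. KLF5, a substrate of WWP1, rose from 7.57 ± 0.367 to 10.1 ± 0.223 FPKM and TP63, a basal keratinocyte factor and ITCH substrate, from 26.3 ± 0.601 to 31.96 ± 0.463 FPKM. With the trend removed TP63 was at 0.14 and passed. HGS, an endosomal sorting gene, fell by 0.30 on the log2 scale. JUN fell by 0.17 with the deposited values, and with the trend removed it was at -0.057 and passed. After quantile normalization JUN was at 0.033 and did not pass.

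**Figure D5:**
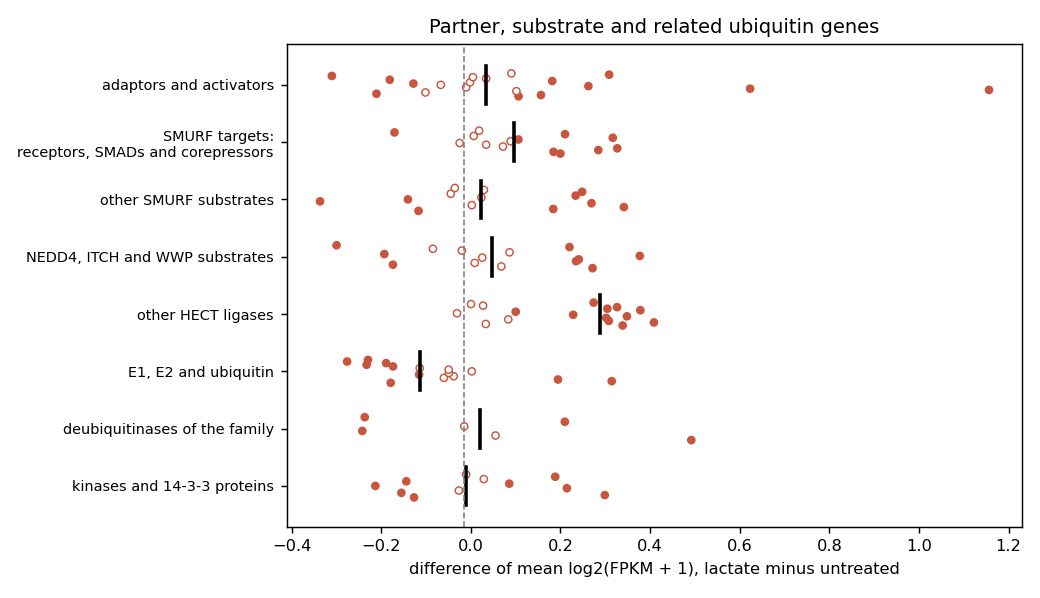
Difference of mean log2(FPKM + 1), lactate minus untreated (x axis), for the tested genes of 8 lists related to the family; filled points passed the limma threshold, open points did not, black bars are list medians and the dashed line is the median of all genes tested (-0.016). The other HECT ligases have the highest list median (0.29), and the E1, E2 and ubiquitin list the lowest (-0.11).

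The other HECT ligases share the catalytic domain but lack the WW domains. Of 16 tested, 11 rose and 0 fell (68.8% called), with a median of 0.29. Over all genes tested 58.6% were called, 27.7% as higher. By limma without adjustment (p under 0.05) 0 fell, as by voom on recovered reads. UBE3B was the only one with a negative difference, at -0.031 (SE 0.044). TRIP12 rose from 9.91 ± 0.270 to 12.9 ± 0.0990 FPKM (limma adjusted p = 6.42e-05), HUWE1 from 7.79 ± 0.239 to 9.84 ± 0.132 and HERC4 from 1.73 ± 0.0921 to 2.62 ± 0.0450. With a filter at 5 FPKM 6 rose. These genes are long, with a median length behind the FPKM of 12505 nt against 4530 nt over all genes tested. With the GC and length trend removed 11 were past the threshold as higher, with a median of 0.12, TRIP12 at 0.18 and HERC4 at 0.20. Of 15 tested genes that supply or carry the ubiquitin, 2 rose and 7 fell (median -0.11), so 9 of 15 were called where 58.6% of all genes were. After quantile normalization 3 fell, and with the trend removed 1 rose. UBB, a polyubiquitin gene, fell from 280 ± 8.31 to 239 ± 6.38 FPKM (-0.23, and -0.071 with the trend removed, limma adjusted p = 0.0488). UBA1, the main ubiquitin-activating enzyme gene, fell by 0.18 and UBE2L6 by 0.17, and neither passed after quantile normalization (limma adjusted p = 0.0736 and 0.114). With the trend removed UBA1 was at -0.11 and passed, while UBE2L6 was at -0.016 (0.517).

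Of 6 deubiquitinase genes tied to the family, 2 rose and 2 fell (66.7% called, against 58.6% of all genes tested). When the trend was removed there were 1 rise and 3 falls. With a filter at 5 FPKM there was 1 fall. USP9X, which removes ubiquitin from SMURF1 and ITCH, had 4.09, 3.89 and 4.14 FPKM in untreated and 6.09, 6.06 and 6.10 FPKM in lactate libraries, and rose by 0.49 (SE 0.032, limma adjusted p = 3.17e-05; 0.30 with the trend removed). CYLD rose by 0.21 but was at 0.014 with the trend removed, where it did not pass. OTUB1 (-0.24) and USP11 (-0.24) fell; USP11 was at -0.15 with the trend removed and passed. Among 11 tested kinase and YWHA phospho-adaptor genes, which restrain NEDD4L or tune ITCH, 4 rose and 4 fell (72.7% called). After quantile normalization 1 fell. Among the rises, SGK3, a kinase related to SGK1, passed the level filter through its lactate libraries alone (1.11, 1.16 and 1.14 FPKM, against 0.870, 0.684 and 0.665 FPKM untreated), so the filter favoured its direction. SGK1, the kinase that turns NEDD4L away from the sodium channel, fell from 22.5 ± 0.213 to 20.5 ± 0.241 FPKM, and did not pass after quantile normalization or with read totals (limma adjusted p = 0.0599 and 0.0693). Its log2 difference was -0.13, and -0.30 with the trend removed. YWHAB rose by 0.21 (0.098 with the trend removed), and YWHAZ by 0.19 but not with the trend removed (0.022). YWHAE fell by 0.21, though it did not pass after quantile normalization.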

How the data were processed

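RNA-seq libraries (3 untreated, 3 lactate) were grouped by the sample labels. The deposited table gives FPKM; the submitters' processing notes name the build hg38 and the tools featureCounts 1.5.0-p3, StringTie 1.3.3b, HISAT2 2.0.5 and fastp; no source used here gives their roles, the annotation or the use of strand. Reads behind the FPKM were recovered as whole numbers, to within 0.003 reads, for 31366 genes by finding a common gene length for all 6 libraries; where several lengths fitted, the one nearest the GENCODE 29 exon length was taken. FPKM was tested with limma 3.58.1 (R 4.3.3), with a trended and robust variance, as log2(FPKM + 1) for 11792 genes reaching 1 FPKM in 3 or more libraries, with Benjamini-Hochberg adjustment over all of them and a threshold of 0.05. The test was also tried on simulated data with few changed genes and no GC or length trend. That setting is unlike these libraries, so no support is drawn from it. Alternatives were other scalings, filters, pseudocounts and variance models, voom on recovered reads, the replicate number as a block, regressing out GC content and length per library (natural splines, 4 degrees of freedom), and each library left out. The family and the 8 related gene lists, written from general knowledge, were chosen with earlier results of these data known. All members were named, with up to 4 genes of smallest p per list, up to 12 called adaptors and the 5 genes nearest SMURF2, except some that are not reported here; UBE3B, SCNN1A, SGK3, SMAD7 and SMAD4 were named after their values were seen. CXCR4 and 3 marker genes had no row in the table.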

Additional observations from a re-analysis of the deposited data

How the results depend on the processing

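The log2 difference for SMURF2 was 0.73 after quantile normalization, 0.75 with read totals and 0.51 with the GC and length trend removed, and 0.65 to 0.71 with 1 library left out. NEDD4 (-0.14, then past the threshold), NEDD4L (-0.050), SMURF1 (0.0027) and NDFIP1 (-0.046) changed sign with the trend removed, as did JUN (0.033) after quantile normalization. NEDD4L stood past the threshold in 5 of 15 alternative fits. Members past the threshold numbered 4 or 5 in all 16 alternatives. With a filter at 5 FPKM, which tests 6448 genes, 1786 were called higher (2955 lower). With 1 library left out, 6027 to 6473 genes passed. With the length of the longest transcript NEDD4L ranked 4 in untreated and 3 in lactate libraries, against 7 in both by FPKM. With the replicate block 7039 genes passed, and SMURF2 stayed at 0.68. Same-numbered libraries deviated together only weakly (r = 0.053, 0.067 and -0.0038), and not every library was most like its own number, so the numbers were not taken as pairs. Few reads limit HECW2 (8 to 16) and the lack of strand information limits SMURF1, WWP1, SMURF2, NEDD4L, HECW1 and HECW2. The causes of these shifts were not tested.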
